A study of Populus trichocarpa with 45 samples.

Results

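Branch 4.5 is 1 of 5 branches sampled from tree 4, a wild black cottonwood (Populus trichocarpa) growing in Oregon, and its 3 mRNA-seq libraries were compared with the 12 libraries of branches 4.1, 4.2, 4.3 and 4.4 of the same tree. Members were chosen by library title, so 3 libraries of branch 4.5 stood against 12, out of 45 libraries in the series. All of them were strand-specific libraries of polyadenylated RNA from leaf tissue, without any treatment. The other 30 libraries came from trees 13 and 14, and although the labels describe 1 tree as the source of every sample, the study regards tree 4 as separate from those 2 stems. It describes the triplicate of a branch as biological in one place and technical in another. P-values of single genes over libraries therefore measured only the spread between libraries of a branch, and each branch was sampled once. Labels give no height, age or light exposure for branch 4.5. The study does show estimated branch ages for tree 4 in a drawing, but the values were not at hand. No file attaches names to the gene identifiers, so leaf identity could not be checked against marker genes.

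A branch of a tree grows from its own shoot tip, and all branches descend from the same seedling, so they share a genome apart from somatic mutations. Leaf transcriptomes nevertheless vary inside a crown, because expression in a leaf responds to its age, to light, to water status, to time of day and to attack by insects or microbes. Comparing branches of 1 tree therefore asks how much leaf expression differs where the inherited genome is nearly the same. The comparison also places branch 4.5 among the other branches, since a branch can be close to some of them and far from others.

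Depth recovered from the deposited values ran from 30610000 to 34380000 fragments in the libraries of branch 4.5 and from 16140000 to 35940000 in the other 12. In branch 4.5 between 29031 and 29218 of 34700 annotated genes were above 0. A set of 198 genes that varied together between libraries of the same branch took 4.85% to 9.48% of all TPM in branch 4.5, but 32.5% in replicate 1 of branch 4.2 and 40.8% in replicate 2 of branch 4.3, which were also the shallowest libraries of tree 4, at 20030000 and 16140000 fragments. TPM is a length-corrected share of a library. It was divided here by 1 factor per library (scaled TPM) so that the typical gene had the same level in every library, and compared as log2(scaled TPM + 1).

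To ask to which branch 4.5 was closest, distance was measured as 1 minus Pearson's r between branch means over the 23092 genes with at least 1 scaled TPM in at least 3 libraries of tree 4. Branch 4.2 was closest to 4.5 at 0.0057. Branch 4.3 followed at 0.0065, and branches 4.4 and 4.1 lay farther off, at 0.0175 and 0.0210. The mean absolute difference from 4.5 was 0.13 on the log2 scale for 4.2, 0.14 for 4.3, 0.24 for 4.4 and 0.26 for 4.1. A difference of at least 1 on the log2 scale separated the means of 4.5 and 4.2 for 70 genes, 4.5 and 4.3 for 90, 4.5 and 4.4 for 371 and 4.5 and 4.1 for 535.

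**Figure D1:**
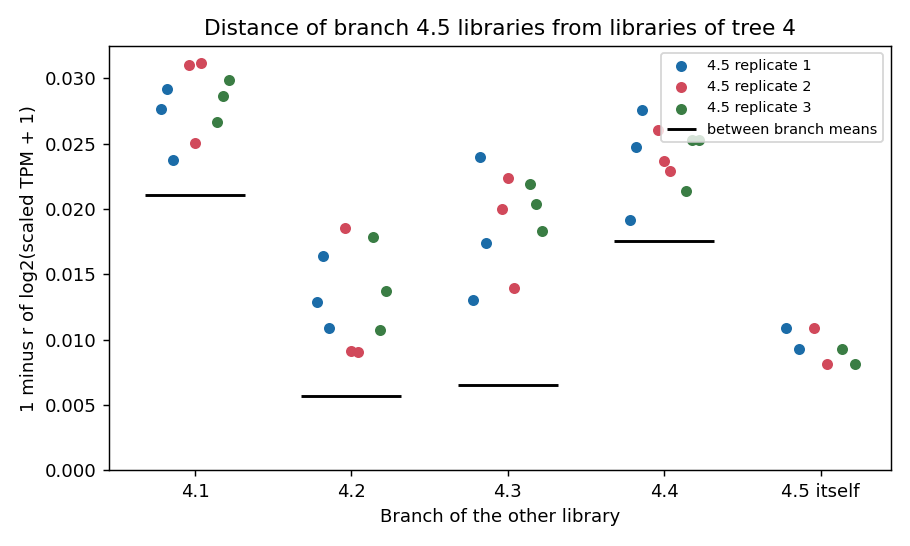
Distance, as 1 minus r of log2(scaled TPM + 1), of each library of branch 4.5 (coloured points) from every library of branches 4.1 to 4.4 and from the other libraries of 4.5. Black lines give the distance between branch means, lowest for 4.2 at 0.0057 and highest for 4.1 at 0.0210; points lie above the lines because a mean of 3 libraries carries less library noise.

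Branch 4.3 was 0.00080 farther from 4.5 than 4.2 was, and exchanging the 6 libraries of 4.2 and 4.3 often gave a gap as large (exact permutation test over 20 assignments, two-sided, p = 0.6, adjusted p over 3 gaps 0.6). In the same exact permutation test the gaps between 4.2 and 4.4 (0.0118) and between 4.2 and 4.1 (0.0153) both reached p = 0.1, the smallest value that 20 assignments allow, with an adjusted p of 0.15. The order of 4.2 and 4.3 also depended on the measure. Leaving out replicate 2 or replicate 3 of branch 4.2 turned the gap to -0.0011 or -0.00043, which put 4.3 closest. A mean squared difference from which the spread between libraries was subtracted, a measure added after seeing the data, was 0.0012 for 4.3 and 0.0137 for 4.2, against 0.0935 for 4.4 and 0.114 for 4.1, but without replicate 1 of 4.2 and replicate 2 of 4.3 it was 0.0338 for 4.3 and 0.0122 for 4.2. Over the 29 settings tried, the main one included, 4.2 was closest in 25 and 4.3 in the other 4, and 4.1 was farthest with 4.4 next in all 29. The settings share most of their libraries. Leaving out a library of 4.1 or 4.4 could hardly change the distances to 4.2 and 4.3. Leaving out a library of 4.2 or 4.3 made the mean of that branch noisier. The tally therefore describes the settings and is not a measure of support.

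The comparison was repeated library by library. The closest library outside the branch was replicate 3 of branch 4.2 for replicate 1 of 4.5 (0.0109) and for replicate 2 (0.0091), and replicate 2 of 4.2 for replicate 3 (0.0107). These values overlapped the distances among the libraries of 4.5 itself, which were 0.0081, 0.0092 and 0.0109. The farthest library was from branch 4.1 for all 3, at 0.0292 to 0.0312. Measured from single libraries to branch means, replicate 1 of 4.5 was marginally closer to 4.3 (0.0088) than to 4.2 (0.0090), while replicate 2 (0.0078 against 0.0094) and replicate 3 (0.0097 against 0.0108) were closer to 4.2.

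**Figure D2:**
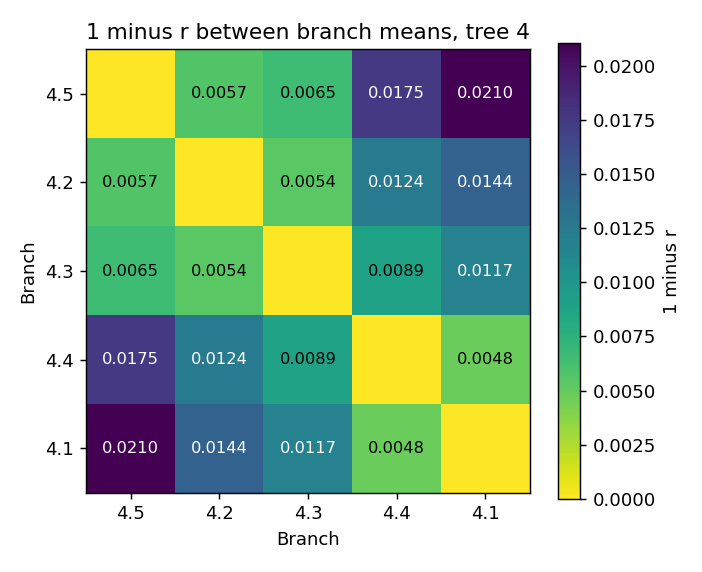
Distances, as 1 minus r, between the mean profiles of the 5 branches of tree 4, ordered from 4.5. Branch 4.5 and branch 4.1 are the farthest pair (0.0210), 4.4 and 4.1 the closest (0.0048), and 4.2 and 4.3 lie between, 0.0054 from each other.

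The mean of branch 4.5 was 0.0091 from the mean of the other 12 libraries. Over all ways to draw 3 of the 15 libraries, few gave a distance as large (exact permutation test, one-sided, p = 0.011). Most of those draws mix libraries of different branches, so an intact branch tends to rank high. This test therefore sets 4.5 against mixed sets of libraries and cannot measure it against the spread between branches. The exact permutation test no longer passed 0.05 without branch 4.1 (0.0070, p = 0.073) or without branch 4.4 (0.0076, p = 0.064), and without replicate 2 (p = 0.055) or replicate 3 (p = 0.088) of branch 4.5. Without the 2 shallow libraries the distance was 0.0109 (exact permutation test, p = 0.0035). Among the 5 branches of tree 4, mean distance to the other 4 was 0.0127 for 4.5 and 0.0130 for 4.1, so 4.5 was not the most remote of the tree by that measure. Branch 4.5 was also far from trees 13 and 14, at a mean of 0.0291 from their 10 branches against 0.0165 to 0.0218 for the other branches of tree 4. Its nearest branch there was 14.3 (0.0184) and its farthest 13.1 (0.0480).

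Relative to the average of the other 4 branches, 110 genes differed in 4.5, or 0.476% of those tested (limma, adjusted p of at most 0.01 and a log2 difference of at least 1). Of these, 31 were higher (0.134%) and 79 lower (0.342%). The median difference was 1.12 on the log2 scale among the higher genes and -1.20 among the lower. The higher genes had a median of 22.6 scaled TPM in 4.5 and 9.92 in the other branches. The lower genes had a median of 16.9 in 4.5 and 49.6 in the others, beside 8.42 and 8.44 for all tested genes. All 3 libraries of 4.5 lay above all 12 others for 19 of the 31 and below all 12 for 63 of the 79, against 2.62% and 3.13% of all tested genes. The same test gave 96 genes for 4.1, 58 for 4.4, 4 for 4.2 and 3 for 4.3, each against the other branches of tree 4.

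With TPM as deposited, which moved the median of all genes by 0.11 on the log2 scale, the split was 61 higher and 55 lower, in place of 31 and 79, and 86 of the 110 genes were still called. Without the 2 shallow libraries, replicate 1 of 4.2 and replicate 2 of 4.3, the count was 108, of which 104 were among the 110. It was 53 without branch 4.1 and 189 without branch 4.2. With the branch rather than the library as the unit, 4.5 is a single sample against 4, and limma called 0 genes, at either threshold tried, with 1537 at an unadjusted p under 0.05. The genes called thus differed beyond the spread between libraries, and were not shown to differ beyond the spread between branches.

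The 2 largest increases and the 2 largest decreases among called genes without overlap were followed in detail. PtStettler14.17G014600 (chromosome 17, plus strand, 1295145 to 1298790 in the Stettler genome) was highest in 4.5, at 19.9, 25.1 and 22.8 scaled TPM (22.6 ± 2.59, SD, n = 3). The other 12 libraries ran from 2.07 through a median of 5.93 to 15.9, without overlap. The difference was 1.84 on the log2 scale (SE 0.14, limma adjusted p = 7.9e-06). Within the 12, branches 4.2 (9.82 to 11.3) and 4.3 (8.66 to 15.9) stood above 4.1 (2.07 to 3.20) and 4.4 (2.34 to 3.09), so 4.5 was at the upper end of a graded order.

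PtStettler14.19G070400 (chromosome 19, minus strand, 11442202 to 11443346) was a weakly expressed gene at 5.11, 4.71 and 3.51 scaled TPM in 4.5. Elsewhere in tree 4 the lowest, median and highest values were 0.13, 0.55 and 3.18. The difference was 1.61 (SE 0.21, adjusted p = 0.00020). The nearest value came from replicate 1 of branch 4.3, and the other libraries of tree 4 were at or below 1.33.

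PtStettler14.11G122800 (chromosome 11, minus strand, 16960185 to 16961346) was lowest in 4.5, at 22.3, 14.5 and 13.99 scaled TPM. The other libraries of tree 4 ran from 30.4 through 102 to 180, without overlap. The difference was -2.17 (SE 0.15, adjusted p = 4.8e-06). Here too 4.2 lay next to 4.5, between 30.4 and 32.1, followed by 4.3 between 44.8 and 78.8, and by 4.1 and 4.4 at 125 and above. Both annotated neighbours of this gene on the same strand were also lower in 4.5, by -1.83 (SE 0.11) and by -1.14 (SE 0.09).

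PtStettler14.02G030900 (chromosome 2, minus strand, 2111755 to 2112299), a short gene, had 1.67, 2.28 and 2.05 scaled TPM in 4.5. The lowest, median and highest values elsewhere in tree 4 were 3.79, 14.6 and 35.2. The difference was -2.12 (SE 0.27, adjusted p = 0.00018). Its values in 4.2 (4.27 to 5.32) were again nearest, apart from replicate 1 of 4.3 at 3.79, while the other 2 libraries of 4.3 had 12.1 and 13.5. None of the 4 genes overlaps another annotated gene, and all 4 kept their direction in every alternative while losing their calls where the branch was the unit.

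**Figure D3:**
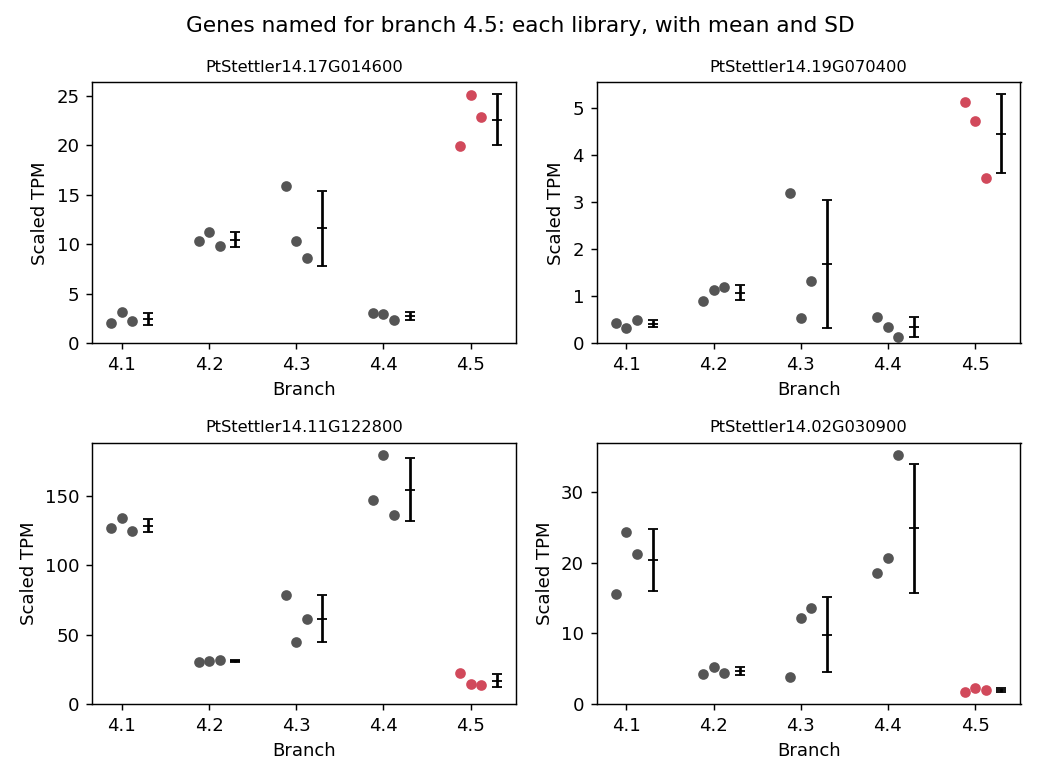
Scaled TPM of the 4 genes named for branch 4.5 in each library of tree 4 (points; 4.5 in red), with the branch mean and SD beside them, n = 3 per branch. The 2 genes in the upper row are highest in 4.5 and the 2 in the lower row lowest, without overlap with the 12 other libraries; in all 4 genes branches 4.2 and 4.3 lie between 4.5 and branches 4.1 and 4.4 by their means.

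Pairwise contrasts gave the same order of branches as the distances. Branch 4.5 differed from 4.2 in 6 genes (0.026%), from 4.3 in 39 (0.169%), from 4.4 in 318 (1.38%) and from 4.1 in 485 (2.1%). Lower genes outnumbered higher ones in each pair, with 4 and 2 for 4.2, 30 and 9 for 4.3, 198 and 120 for 4.4 and 283 and 202 for 4.1. The 4 pairs share the libraries of 4.5 and were not tested against each other. The counts for the closer branches were unstable, and fell to 1 in both pairs when only their 6 libraries were fitted, where the counts were 321 for 4.4 and 493 for 4.1. For 4.2 the count was 12 without replicate 1 of 4.3, 3 without replicate 2 or 3 of 4.2 or replicate 1 of 4.5, and 2 without replicate 2 or 3 of 4.5, replicate 3 of 4.1 or replicate 2 of 4.4. For 4.3 it was 69 without replicate 1 of 4.3 and 20 without its replicate 3. With TPM as deposited, which moved the median of all genes by 0.20 against 4.2 and 0.23 against 4.3 on the log2 scale, 1 gene (lower) and 19 genes (12 higher and 7 lower) were called. Without the 2 shallow libraries the counts were 4, 30, 324 and 492 against 4.2, 4.3, 4.4 and 4.1. For 4.3 the low count stood beside a wide spread of its libraries, whose mutual distances were 0.0379 and 0.0317 where replicate 2 was involved and 0.0154 between replicates 1 and 3, while those of 4.5 were 0.0081 to 0.0109. The part of that spread in the count was not tested.

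**Figure D4:**
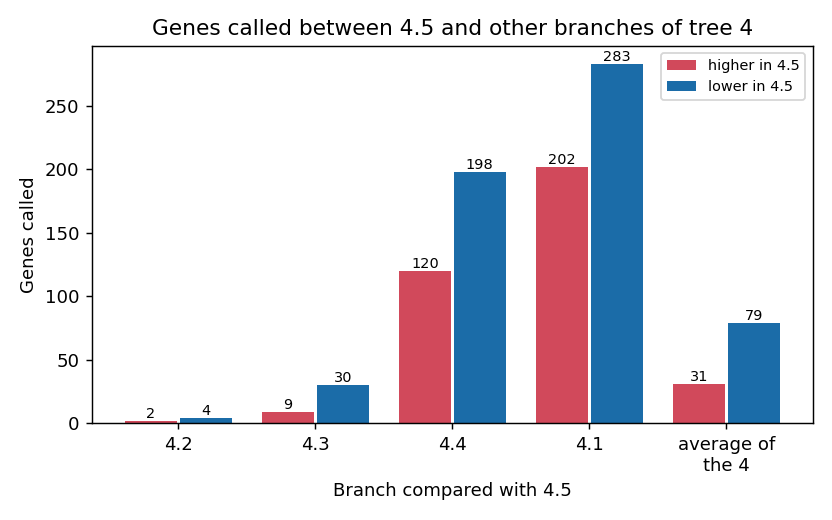
Number of genes called (adjusted p of at most 0.01, log2 difference of at least 1) higher (red) or lower (blue) in branch 4.5 than in each other branch of tree 4 and than in the average of the 4. The counts rise from 6 against 4.2 to 485 against 4.1, with more lower than higher genes in every comparison.

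Of the 4 genes named for the pair of 4.5 and its closest branch, 3 followed other orders of branches than the distances. The 4 were chosen for their large differences between 4.5 and 4.2, which disfavoured an order with 4.2 nearest. Over all tested genes 4.2 had the nearest mean for 39.9%. The orders therefore describe these genes only. PtStettler14.01G171900 (chromosome 1, minus strand, 17338298 to 17339554) had 27.9, 35.1 and 29.3 scaled TPM in 4.5 against 8.88, 11.4 and 11.5 in 4.2, a difference of 1.45 (SE 0.14, adjusted p = 0.0011). Its values in 4.3 (22.1 to 34.1) overlapped those of 4.5, 4.4 resembled 4.2 (10.1 to 11.2), and 4.1 was lowest (2.02 to 2.57). In trees 13 and 14 the gene stayed between 0.87 and 3.95 in all 30 libraries.

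PtStettler14.04G147300 (chromosome 4, plus strand, 18331006 to 18331837) was likewise higher in 4.5, at 274, 334 and 273, than in 4.2, at 114, 138 and 142 (1.15, SE 0.14, adjusted p = 0.0046). Branch 4.3, at 286 to 310, was level with 4.5 and the 2 overlapped, and 4.1 was lowest at 51.0 to 79.9. For both of these genes 4.5 resembled 4.3 more than 4.2, which the way they were chosen favoured.

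PtStettler14.04G031600 (chromosome 4, plus strand, 2756360 to 2760736) was the one case among the named genes in which 4.5 went with the distant branches. It had 0.11, 0.10 and 0.30 scaled TPM in 4.5 against 2.15, 1.98 and 1.78 in 4.2 (-1.35, SE 0.11, adjusted p = 0.00035). Branch 4.3 resembled 4.2, at 1.69 to 2.58. In 4.1 and 4.4 the gene was listed at 0 in 2 libraries each and at 0.019 and 0.020 in the remaining library, so the 5 branches fell into a pair with about 2 scaled TPM and 3 branches near 0.

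PtStettler14.08G179100 (chromosome 8, plus strand, 13782095 to 13784144) was lowest in 4.5 of all 15 branches, at 7.08 to 7.88, against 15.1, 27.9 and 19.2 in 4.2 (-1.34, SE 0.19, adjusted p = 0.0099). It followed the order of the distances, with differences of 4.5 of -1.50 from 4.3, -1.95 from 4.4 and -2.61 from 4.1 on the log2 scale. This call sat at the threshold and was lost in 16 of 26 alternatives, with the same direction in each. Of the other 3, PtStettler14.04G147300 lost its call in 12, PtStettler14.01G171900 in 2 of 26 and PtStettler14.04G031600 in 1 of 25.

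The differences named against 4.1, the farthest branch, were larger, and were picked from 485 called genes in place of 6. Their SEs ran from 0.17 to 0.51, beside 0.11 to 0.19 for the genes named against 4.2. PtStettler14.14G023900 (chromosome 14, plus strand, 1978506 to 1979012) had 14.9, 17.0 and 14.7 scaled TPM in 4.5 and 0.99, 1.03 and 1.18 in 4.1 (2.997, SE 0.17, adjusted p = 3.8e-07). PtStettler14.07G007800 (chromosome 7, minus strand, 674625 to 676338) had 566, 337 and 318 against 40.7, 112 and 49.9 (2.66, SE 0.51, adjusted p = 0.0016). Its libraries disagreed within branches, with 774 in replicate 1 of 4.3 beside 151 and 173.

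Among the lower genes, PtStettler14.19G048700 (chromosome 19, plus strand, 8234966 to 8236880) had 98.7, 61.0 and 46.1 in 4.5 against 715, 525 and 674 in 4.1 (-3.26, SE 0.31, adjusted p = 8.5e-06). PtStettler14.14G021400 (chromosome 14, plus strand, 1800270 to 1804668) had 6.31, 5.20 and 4.81 against 43.7, 41.5 and 36.0 (-2.69, SE 0.26, adjusted p = 8.7e-06). For all 4 genes the mean of 4.2 was nearer to 4.5 than to 4.1 on the log2 scale, and all 4 calls against 4.1 held in the 26 alternatives run for that pair.

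The medians over the 110 genes followed the order of the distances within tree 4. The median difference of the 31 higher genes was 0.57 from 4.2, 0.73 from 4.3, 1.63 from 4.4 and 1.86 from 4.1 on the log2 scale. For the 79 lower genes it was -0.59, -0.97, -1.65 and -1.80, beside values between -0.01 and 0.01 for all tested genes. The full order 4.5, 4.2, 4.3, 4.4, 4.1 was found for 11 of the 31 and 38 of the 79, beside 8.81% and 10.6% of all tested genes with a difference above and below 0. Branches 4.2 and 4.3 both lay on the side of 4.5 relative to 4.4 and 4.1 for 25 of the 31 and 71 of the 79, beside 50.7% and 49.0% of those genes. The mean of 4.5 was the most extreme of the 5 for all 110 genes, beside 51.4% and 55.0%. Branch 4.2 had the nearest mean for 23 of the 31 and 71 of the 79, and 4.3 for 8 and 7, while over all tested genes 4.2 was nearest for 39.9% and 4.3 for 32.4%. These patterns come from the libraries in which the genes were called and describe them only.

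Trees 13 and 14 gave 30 libraries that the contrast had not used. There the 31 higher genes varied between branches by a median SD of 0.36 on the log2 scale in tree 13 and 0.38 in tree 14, and the 79 lower genes by 0.34 and 0.44, against 0.10 in both trees for all tested genes. The higher genes were higher in tree 14 than in tree 13 for 30 of 31 (49.1% of all tested genes), by a median of 0.58. The lower genes were lower in tree 14 for 60 of 79 (50.9% of all tested genes), by a median of -0.38. Relative to the mean of both trees, the higher genes had a median of -0.72 in branch 13.1 and of 0.56, 0.56 and 0.58 in 14.3, 14.4 and 14.5, and the lower genes had 0.68 in 13.1 and -0.41, -0.62 and -0.48 in those 3. Branches 14.1 and 14.2 went the other way, at -0.13 and -0.12 for the higher genes and 0.21 and 0.22 for the lower. The difference between the trees was thus not shared by all branches of tree 14. On the same scale branch 4.5, whose libraries chose the genes, was at 1.58 and -1.58, and branch 4.2 came next at 0.96 and -0.92. The 2 directions moved in opposition in the same branches, and no test was made of this pattern.

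**Figure D5:**
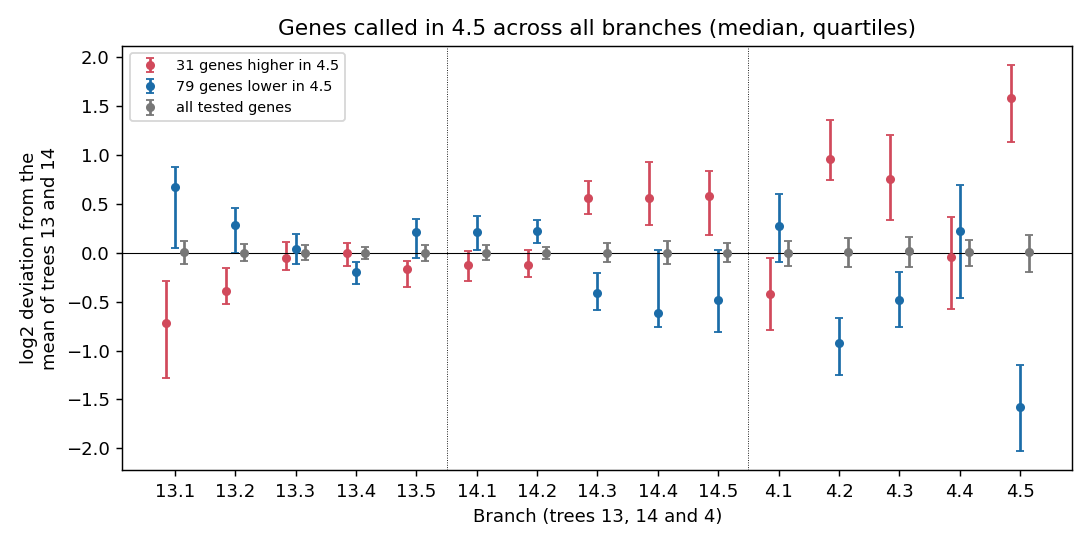
Median (points) and quartiles (bars) over genes of the log2 deviation of each branch mean from the mean of trees 13 and 14, for the 31 genes higher in 4.5 (red), the 79 lower (blue) and all tested genes (grey). The 2 groups of genes move apart in 14.3, 14.4 and 14.5 and in the opposite sense in 13.1, and are widest apart in 4.5, at 1.58 and -1.58.

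The genes called were scattered over the genome. They lay on 18 of 19 chromosomes. Chromosome 1 had the largest count, 13 of 2725 tested genes, a share of 0.477% beside 0.476% over all tested genes. Chromosome 7 had 0 of 899. Per chromosome the share ran from 0 to 0.949% of tested genes, the highest on chromosome 19. They were short, with a median annotated span of 1502 bases against 3519 for all tested genes, and 31.8% spanned less than 1000 bases against 8.53%. Of the 110, 15 stood in 7 runs of neighbouring genes, 6 runs of 2 and 1 of 3, and the members of every run moved in the same direction, down in 4.5. Of all 110, 79 were lower. Runs were not counted in other sets of tested genes, so whether 15 is more than usual was not tested. In 2 of the runs the genes overlap on the same strand and may share fragments, so they are uncertain as separate calls. In all, 6 of the 110 overlap an annotated gene on the same strand (2.72% of tested genes) and 0 overlap one on the opposite strand (5.20% of tested genes). None of the 110 belongs to the 198 genes that varied together between libraries, of which 196 were among the 23092 tested. With so small a share this says little about the called genes.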

How the data were processed

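Paired reads were trimmed with Trimmomatic 0.36, aligned to the Stettler genome with HISAT2 2.1.0 and summarised by the authors with StringTie 1.3.4d for annotated transcripts only. The authors deposited TPM and FPKM values for 34700 genes in 1 table per library. TPM was divided by median-of-ratios factors over the 25014 genes above 0 in all 45 libraries (0.506 to 1.29) and tested as log2(scaled TPM + 1), which understates changes of weak genes. The deposited FPKM values served only to recover depth, from the smallest step, taken as 1 fragment. The authors compared branches in pairs with DESeq2 on counts, which were not used here; their thresholds were kept, an adjusted p of at most 0.01 and a log2 change of at least 1.

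A single limma model (version 3.58.1, R 4.3.3, eBayes with trend) held the 15 libraries of tree 4, and p-values were adjusted by Benjamini-Hochberg over all genes tested. Distances and exact permutation tests were computed in Python 3.11.15 with numpy 2.4.6 and pandas 2.3.3. Named genes were the 2 largest increases and 2 largest decreases among called genes without overlap between the libraries compared, for the main contrast and for the pairs with the closest and the farthest branch, without repeats. The comparison, lists and tests were chosen with earlier results of these data known. Tested on simulated data of 22853 genes, the fit recovered 98.5% of 200 planted genes with a log2 change of 2 for 4.5 against the other branches, with 0 false calls, and 98% for 4.5 against 4.2, with 1. Simulated noise was independent between genes, and the branches differed only by the planted changes. Those were placed only in the better expressed genes, and changes near the threshold of 1 were not simulated. The recovery therefore does not carry over to weaker changes or to spread between branches. Genes counted as co-varying when their deviations from branch means correlated above 0.8 with the first component of all such deviations. No 2 libraries held identical values. Alternatives covered the pseudocount, the filter, scaling, trend, thresholds, distance measure, libraries, branches and replicate block.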

Additional observations from a re-analysis of the deposited data

Results flagged for a closer look

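The libraries of branch 4.3 stood apart from each other more than those of any other branch of tree 4. The median of 1 minus r between its 3 libraries was 0.0317, against 0.0092 in 4.5, 0.0106 in 4.4, 0.0111 in 4.1 and 0.0123 in 4.2. The largest distances involved replicate 2, the shallow library with 40.8% of its TPM in co-varying genes, which was 0.0379 and 0.0317 from the others. Replicates 1 and 3 were 0.0154 apart, within the range of 4.2 (0.0106 to 0.0168) but above the median of every other branch. Of 17 sets of 5 branch values examined, these medians were the only set with a highest or lowest value far outside the others. Chance marks about 1 in 20.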

How the results depend on the processing

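Main counts were compared with those under each alternative. For 4.5 against the other branches, 110 genes became 188 with a pseudocount of 0.1 TPM, 4467 at an adjusted p of at most 0.05 with no limit on the change, 0 with the branch as the unit under either threshold, 53 without branch 4.1, 189 without 4.2 and 71 without 4.4, and 100 to 124 when single libraries were left out; 51, 110 and 68 of the 110 remained called without 4.1, 4.2 and 4.4. Against 4.1 the count was 870 and 6423 under the first and second of these, and 444 to 533 without single libraries. Against 4.4 it was 562 and 5531, and 278 to 340. Against 4.2 it was 2 without a filter, 1 with TPM as deposited, 1 with the 6 libraries fitted alone, 91 with no limit on the change, and 2 to 12 without single libraries. Against 4.3 it was 19, split into 12 higher and 7 lower, with TPM as deposited, 1 with 6 libraries alone, 439 with no limit on the change, and 20 to 69. The same fits of 6 libraries gave 493 against 4.1 and 321 against 4.4. The causes were not tested. The distance of 4.5 from the other 12 libraries was 0.0070 without 4.1, 0.0076 without 4.4, and 0.0084 to 0.0105 without single libraries. The gap between 4.3 and 4.2 was 0.0128 as a mean absolute log2 difference, 0.0058 over the 9 pairs of libraries, 0.0047 without replicate 1 of 4.2 and replicate 2 of 4.3, and -0.0011 to 0.0049 without single libraries, with -0.00043 without replicate 3 of 4.2. With spread between libraries subtracted it was -0.0125, -0.0039 without the co-varying genes as well, and 0.0216 without those 2 libraries. The spread-corrected settings, the removal of those 2 libraries together and the branch as the unit at the looser threshold were chosen after seeing the data.

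Same-numbered libraries of 2 branches had correlations of deviations from -0.489 to 0.482, with a mean of 0.075 against -0.037 for other numbers. Of 15 libraries, 7 correlated best with their own number. Whether replicate numbers paired the libraries was not tested. A replicate block moved the genes at an unadjusted limma p under 0.05 from 7389 to 8143 for 4.5 against the others. With the replicate block the counts were 112 for 4.5 against the others and 486, 9, 42 and 318 against 4.1, 4.2, 4.3 and 4.4. The 3 libraries of a branch may be technical, each branch was sampled once, and no gene names were at hand. Very low TPM values stand for few fragments.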
